A study of Mus musculus with 16 samples.

Results

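The Wnt signalling components described here are 37 genes of the 13101 rows in a deposited expression table from mouse spermatogenic cells. They were chosen by name: every row whose symbol belongs to the Wnt, Frizzled, Dishevelled, Axin, Sfrp, Dickkopf, Lgr, Naked, Bcl9 or Pygopus families, plus a short list of named partners from the Lrp co-receptors to the TCF/LEF factors. Porcn and Rnf43, which that list also names, were not analysed here. All 37 passed the filter on low values and were tested. The study compared wild-type C57BL/6J male mice with males of the genotype Tex10f/-; Stra8iCre. Tex10 is a nuclear protein known from ribosome assembly and from gene control in stem cells. The Tex10-deficient mice carry a floxed and a null Tex10 allele and a Cre recombinase driven by Stra8, a gene switched on in spermatogonia. Both groups were 8 weeks old, and no label says whether the wild-type mice carried Cre or floxed alleles. From the testis of each genotype came 4 cell fractions, named in the sample titles as spermatogonia, MI spermatocytes, MII spermatocytes and round spermatids, with 2 bulk polyA RNA-seq libraries each, 16 in all. How the fractions were separated, and whether paired libraries stem from different mice, is not stated, and the p-values therefore cover the spread between libraries alone, which may be technical. Round spermatids are called spermatids below.

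Wnt proteins are secreted lipid-modified ligands that Wls carries to the cell surface. They bind a Frizzled receptor together with Lrp5 or Lrp6, Dishevelled proteins relay the signal, and the destruction complex of Axin, Apc, casein kinase 1 and glycogen synthase kinase 3 stops degrading beta-catenin (Ctnnb1). Beta-catenin then enters the nucleus and binds TCF/LEF factors with the co-activators Bcl9 and Pygopus, while secreted antagonists and feedback inhibitors restrain the pathway. In the testis, Wnt signals from somatic cells are known to act on spermatogonial stem and progenitor cells.

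Several properties of the libraries touch every result below. For 6 of the 8 Tex10-deficient libraries, the sample title and the cell type field name different fractions, whereas they match for all 8 wild-type libraries; groups here follow the titles, and the Tex10 comparisons are also given by the field. In each fraction both Tex10-deficient libraries held less Tex10 than both wild-type libraries, at 7.29 to 34.8 FPKM against 13.8 to 116 (FPKM, fragments per kilobase of transcript scaled to library size; averaged log2 change -1.68, SE 0.15, adjusted p = 0.00049, limma). Over the 4 libraries of each titled fraction, the summed FPKM of spermatogonial markers (8 of 10 in the table) was 178 to 331 in spermatogonia and 3.58 to 71.5 elsewhere. Meiotic prophase markers (10 of 10) summed to 324 to 599.8, 647 to 1132, 19.8 to 189 and 549 to 868 in spermatogonia, MI, MII and spermatids. Late spermatocyte markers (10 of 10) summed to 96.2 to 192, 2731 to 4567, 137 to 1048 and 6357 to 7427 in the same order. Round spermatid markers (7 of 8) summed to 1259.9 to 1469 in spermatids and 3.19 to 180.3 elsewhere, and elongating spermatid markers (8 of 8) to 6485 to 13304 and 56.4 to 826. The MII fraction, named by title alone, thus had the lowest meiotic prophase sums and late spermatocyte sums below those of MI and spermatids. It also carried somatic markers, so rises and falls into and out of MII compare bulk fractions. Leydig cell markers (8 of 8) summed to 944 to 1513 in MII and 16.6 to 244 elsewhere, Sertoli cell markers (5 of 10) to 124 to 163 and 6.44 to 69.8, and myoid, endothelial and stromal markers (8 of 10) to 2888 to 5257 and 6.23 to 441; none of these 21 genes was at 0 in both libraries of a group. Immune markers (11 of 11) summed to 242 to 644 in MII, 285 to 631 in spermatogonia and 3.52 to 32.2 in the other 2 fractions, and T cell markers (3 of 5) to 16.1 to 63.8 in spermatogonia and 0 to 1.84 elsewhere, with Cd3g and Cd2 at 0 in both wild-type MI and both wild-type MII libraries.

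Across the fractions the members were most often highest in the fraction titled MII. By group means, 19 of 37 members peaked there in wild type and 21 in Tex10-deficient cells, against 3344 and 3949 of 13100 genes; 10 and 7 members peaked in spermatogonia, 4 and 4 in MI spermatocytes and 4 and 5 in spermatids. For 33 of 37 members (89.2%, against 83.2% of all genes) the peak was the same in both genotypes. All 4 MII libraries lay above all 12 others for 12 members (32.4%, against 15.9% of all genes): Fzd1, Fzd2, Fzd7, Fzd8, Sfrp1, Tcf7l1, Tcf7l2, Wls, Wnt2b, Wnt5a, Wnt5b and Wnt6. Of these, Wnt5a and Wnt5b reached 1 FPKM in the 4 MII libraries only and passed the filter on low values through them. Their place in this count is therefore not independent of the filter. The MII fraction is also where the Leydig, Sertoli and myoid, endothelial and stromal marker sums are highest, and their part in these levels was not tested. In bulk samples fewer cells of a type and less RNA per cell cannot be told apart. Mean levels over the 16 libraries ran from 1.42 FPKM to 124 for Csnk1a1, with a median of 6.9 against 8.76 for all genes, and 19 of the 592 member values were listed at 0.

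**Figure D1:**
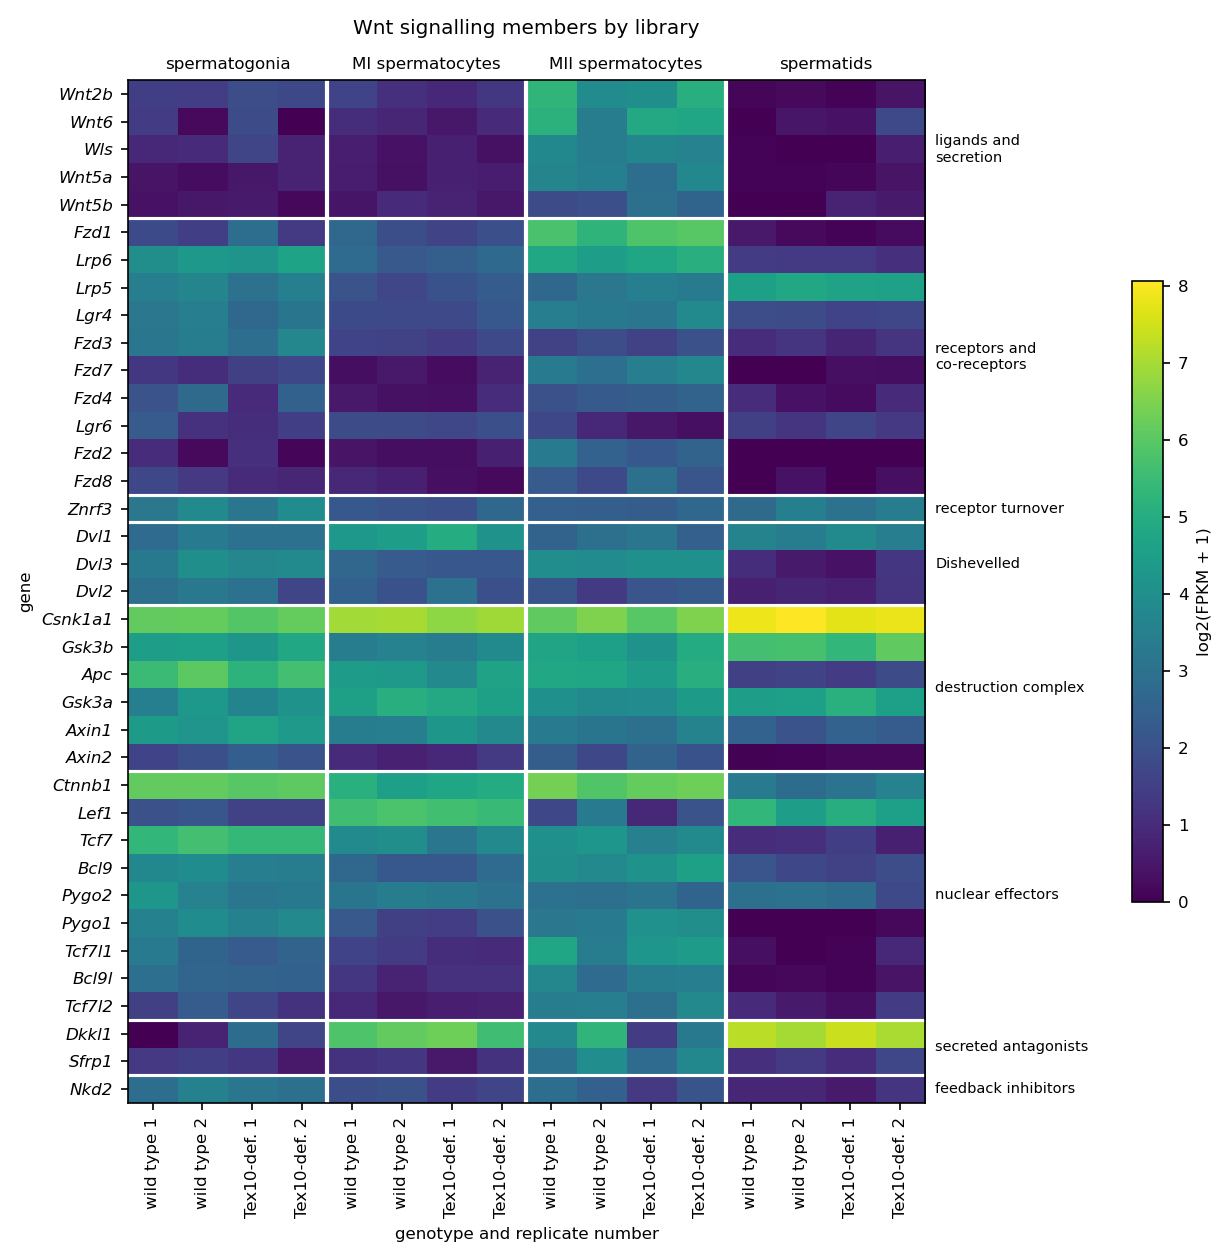
Each row is 1 of the 37 members, grouped by role, and each column 1 of the 16 libraries; colour is log2(FPKM + 1), from dark at 0 to bright. Ligand rows are brightest in the 4 MII columns, while Lef1 and Dkkl1 are brightest in MI spermatocytes and spermatids.

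RefSeq promoter windows (GRCm38.p6), taken as the 250 bases before an annotated start, were found for 25 of the 37 members, with 35 windows in all. The letters CTTTGA, the core that TCF/LEF factors bind, stood on either strand in 5 of the 35 (14.3%), belonging to Fzd1, Gsk3a, Gsk3b, Lef1 and Wnt5b, against 13.8% of 32851 windows and 11.1% of the 12662 windows of genes in the table. The GC box GGGCGG stood in 26 of 35 (74.3%, against 32.7% and 54.2%), and TGACGTCA, the cAMP response element, in 0 of 35 (1.55% and 2.69%). Some windows of 1 gene overlap, as for Lef1, Pygo2 and Ctnnb1, so the same letters can be counted more than once. Member windows held 40.8 to 84% G and C, against a median of 59.2% for genes in the table. The part of this content in the GC box count was not tested. CTTTGA and TGACGTCA can share the letters TGA. A match is a description of letters and not a bound site.

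The windows shown belong to 4 members described below: Lef1, the TCF/LEF gene that leads in MI spermatocytes and spermatids, Axin2, a widely used target gene, Gsk3b, a kinase that rises in spermatids, and Fzd1, whose fall from MII to spermatids is the largest of the 37 members. They were picked after these values were seen. They read 5′ to 3′ in the direction of the gene, and capitals mark CTTTGA or GGGCGG on either strand. Of the 4 Lef1 windows, the 1 shown holds CTTTGA and the other 3 do not. It lies before an internal start, on chr3:131156044-131156293 (+ strand), in an intron of the longer transcript; the table does not separate Lef1 transcripts by start. Those of Axin2 (chr11:108920099-108920348, + strand), Gsk3b (chr16:38088751-38089000, + strand) and Fzd1 (chr5:4758217-4758466, - strand) lie before the RefSeq start and overlap no exon of GENCODE M21.
Lef1: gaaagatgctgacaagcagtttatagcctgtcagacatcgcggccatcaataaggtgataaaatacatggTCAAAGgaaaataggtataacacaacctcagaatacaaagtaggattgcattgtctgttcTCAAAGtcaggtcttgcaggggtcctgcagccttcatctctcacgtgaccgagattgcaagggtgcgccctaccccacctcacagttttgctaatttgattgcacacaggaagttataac
Axin2: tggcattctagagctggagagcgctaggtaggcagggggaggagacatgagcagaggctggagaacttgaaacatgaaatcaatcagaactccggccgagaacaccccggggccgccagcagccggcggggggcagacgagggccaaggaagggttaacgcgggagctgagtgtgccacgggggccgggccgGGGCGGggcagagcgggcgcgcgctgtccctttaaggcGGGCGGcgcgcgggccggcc
Gsk3b: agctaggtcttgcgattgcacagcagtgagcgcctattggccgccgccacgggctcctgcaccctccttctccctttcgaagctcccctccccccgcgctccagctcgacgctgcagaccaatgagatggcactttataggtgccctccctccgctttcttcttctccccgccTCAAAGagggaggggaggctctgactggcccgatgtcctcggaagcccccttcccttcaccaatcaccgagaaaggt
Fzd1: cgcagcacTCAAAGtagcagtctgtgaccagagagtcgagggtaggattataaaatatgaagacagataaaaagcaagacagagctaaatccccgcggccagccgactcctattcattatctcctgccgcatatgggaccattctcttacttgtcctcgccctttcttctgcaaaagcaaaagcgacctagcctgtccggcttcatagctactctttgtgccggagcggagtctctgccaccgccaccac
The Lef1 window shown holds 2 copies of CTTTGA, those of Gsk3b and Fzd1 hold 1 each, and that of Axin2 holds 0.

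The 4 ligands in the table and the carrier Wls were low in spermatogonia and MI spermatocytes, rose in the MII fraction and fell in spermatids. Changes between fractions are differences of log2(FPKM + 1), which understates the change of low genes, and a change is called at an adjusted p under 0.05 (limma, adjusted over 13099 genes). Wnt2b (GENCODE M21, GRCm38: chr3:104945272-104961921, - strand), a ligand of the canonical branch, had the highest mean of the 4 ligands. Wild-type Wnt2b was at 1.79 and 1.78 FPKM in spermatogonia, 2.09 and 1.13 in MI, 37.6 and 13.7 in MII and 0.112 and 0.145 in spermatids. Tex10-deficient Wnt2b was at 2.78 and 2.36 FPKM in spermatogonia, 0.866 and 1.47 in MI, 15.1 and 33.3 in MII and 0.0578 and 0.349 in spermatids. Its 4 MII libraries did not overlap the other 12. From MI to MII the change was 3.22 (SE 0.44, adjusted p = 5.7e-05) in wild type and 3.46 (SE 0.44, adjusted p = 1.8e-05) in Tex10-deficient cells, and from MII to spermatids -4.40 (SE 0.44, adjusted p = 2.2e-06) in wild type and -4.30 (SE 0.44, adjusted p = 1.3e-06) in Tex10-deficient cells.

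Wild-type Wnt6 was at 1.65 and 0.156 FPKM in spermatogonia, 1.1 and 0.808 in MI, 35 and 9.63 in MII and 0 and 0.39 in spermatids. Tex10-deficient Wnt6 was at 2.59 and 0 FPKM in spermatogonia, 0.419 and 1.0001 in MI, 28.4 and 26.5 in MII and 0.322 and 2.4 in spermatids. Tex10-deficient spermatid replicate 2, at 2.4, also had the highest Leydig (244) and Sertoli (69.8) marker sums outside MII, and their part in the value was not tested. Wnt6 rose from MI to MII by 3.33 in wild type and 4.08 in Tex10-deficient cells (adjusted p = 0.00078 and 0.00011). Wnt5b, which signals mainly through the beta-catenin-independent branch, had the lowest mean of the 4 ligands. Wild-type Wnt5b was at 0.314 and 0.445 FPKM in spermatogonia, 0.377 and 0.947 in MI, 2.6 and 2.91 in MII and 0 and 0 in spermatids. Tex10-deficient Wnt5b was at 0.497 and 0.137 FPKM in spermatogonia, 0.749 and 0.449 in MI, 6.85 and 5.12 in MII and 0.758 and 0.502 in spermatids. The MII libraries of both genotypes were above the rest, and the Tex10-deficient MII pair was above the wild-type pair. The MI to MII change of Wnt5b was 1.20 (SE 0.28, adjusted p = 0.0025) in wild type and 2.12 (SE 0.28, adjusted p = 2.2e-05) in Tex10-deficient cells; under quantile normalization the wild-type call was lost (adjusted p = 0.11). Wnt5a, the best known ligand of the beta-catenin-independent branch, ranged from 6.48 to 12.6 FPKM in MII and stayed at or under 0.699 in the other 12 libraries.

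Wls, the carrier that brings Wnt proteins to the membrane, followed the ligands. Wild-type Wls was at 0.913 and 1.01 FPKM in spermatogonia, 0.611 and 0.307 in MI, 12.7 and 9.53 in MII and 0.0568 and 0 in spermatids. Tex10-deficient Wls was at 2.21 and 0.736 FPKM in spermatogonia, 0.637 and 0.279 in MI, 11.9 and 11 in MII and 0 and 0.61 in spermatids. Outside MII the highest Wls value was 2.21 FPKM, in Tex10-deficient spermatogonia replicate 1. Wls rose from MI to MII (log2 change 3.05, SE 0.34, adjusted p = 1.7e-05 in wild type) and fell from MII to spermatids (log2 change -3.54, SE 0.34, adjusted p = 1.7e-06). All 5 genes of this role were called higher from MI to MII in both genotypes (all genes 30% in wild type and 31.6% in Tex10-deficient cells) and lower from MII to spermatids (all genes 35% and 36.9%). Wnt5a and Wnt5b passed the filter through the MII libraries alone, so these counts are not independent of it.

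Among the Frizzled receptors, which bind Wnt through a cysteine-rich outer domain, Fzd1 (chr5:4753839-4758035, - strand) made up most of the summed Frizzled FPKM in MII. Wild-type Fzd1 was at 2.54 and 1.83 FPKM in spermatogonia, 5.67 and 2.79 in MI, 52.7 and 36.7 in MII and 0.452 and 0.147 in spermatids. Tex10-deficient Fzd1 was at 6.46 and 1.61 FPKM in spermatogonia, 2.15 and 2.89 in MI, 56.7 and 62.1 in MII and 0.0579 and 0.176 in spermatids. Its MII libraries stood far above all others and its spermatid libraries were all at or under 0.452 FPKM. Fzd1 rose from MI to MII by 3.16 (SE 0.44, adjusted p = 5.8e-05) in wild type and 4.11 (SE 0.44, adjusted p = 5.4e-06) in Tex10-deficient cells. The fall from MII to spermatids, -5.12 (SE 0.44, adjusted p = 8.4e-07) in wild type and -5.76 (SE 0.44, adjusted p = 2.6e-07) in Tex10-deficient cells, was the largest of the 37 members in both genotypes. As a share of the 6 Frizzled genes in the table, Fzd1 held 64.2 to 68.5% over the 4 MII libraries, 36.6 to 58.9% in MI, 7.39 to 35.7% in spermatogonia and 4.44 to 17.7% in spermatids. Fzd3 led in spermatogonia, with 36.4 to 55.9%, and held 41.1 to 63.7% in spermatids, where Fzd4 held 14.3 to 41.2%. These shares are descriptions with no test.

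Wild-type Fzd7 was at 1.48 and 1.09 FPKM in spermatogonia, 0.231 and 0.45 in MI, 8.74 and 6.63 in MII and 0 and 0 in spermatids. Tex10-deficient Fzd7 was at 1.91 and 2.37 FPKM in spermatogonia, 0.193 and 0.74 in MI, 9.99 and 12.3 in MII and 0.263 and 0.218 in spermatids. Only the 4 MII libraries were above 2.37 FPKM. The MI to MII change of Fzd7, a receptor active in stem cells, was 2.69 (SE 0.29, adjusted p = 1.4e-05) in wild type and 3.07 (SE 0.29, adjusted p = 3.1e-06) in Tex10-deficient cells. Wild-type Fzd8 was at 2.33 and 1.55 FPKM in spermatogonia, 0.854 and 0.63 in MI, 3.998 and 2.43 in MII and 0 and 0.324 in spermatids. Tex10-deficient Fzd8 was at 0.951 and 0.817 FPKM in spermatogonia, 0.266 and 0.14 in MI, 6.84 and 3.35 in MII and 0 and 0.261 in spermatids. In spermatogonia and MI the Tex10-deficient Fzd8 libraries were below the wild-type ones, and in MII the pairs overlapped. Fzd2 reached 3.7 to 8.76 FPKM in MII and was at 0 in all 4 spermatid libraries, and Fzd4 ran from 2.98 to 4.94 in MII and 1.01 to 5.89 in spermatogonia.

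The co-receptors Lrp5 (chr19:3584828-3686564, - strand) and Lrp6 changed in opposite directions from MII to spermatids. Wild-type Lrp5 was at 9.82 and 11.8 FPKM in spermatogonia, 3.16 and 2.3 in MI, 5.48 and 8.15 in MII and 22.8 and 26.8 in spermatids. Tex10-deficient Lrp5 was at 7.26 and 10.2 FPKM in spermatogonia, 3.09 and 4.14 in MI, 10.3 and 8.73 in MII and 24.2 and 23.6 in spermatids. The 4 spermatid libraries of Lrp5 were the highest of all 16, and the 4 MI libraries the lowest. Wild-type Lrp6 was at 14.9 and 18.5 FPKM in spermatogonia, 6.13 and 3.75 in MI, 26.7 and 21.3 in MII and 1.72 and 1.6 in spermatids. Tex10-deficient Lrp6 was at 17.2 and 24.8 FPKM in spermatogonia, 4.41 and 5.76 in MI, 26.4 and 32.5 in MII and 1.6 and 1.12 in spermatids. For Lrp6 the 4 spermatid libraries were below all 12 others. From MII to spermatids Lrp5 rose by 1.74 (SE 0.29, adjusted p = 9.4e-05) in wild type and 1.25 (SE 0.29, adjusted p = 0.0012) in Tex10-deficient cells, and the Lrp6 change was -3.22 (SE 0.30, adjusted p = 1.5e-06) in wild type and -3.69 (SE 0.30, adjusted p = 3.4e-07) in Tex10-deficient cells. From MI to spermatids Lrp5 rose by 2.79 (SE 0.29, adjusted p = 7.9e-06) in wild type and 2.44 (SE 0.29, adjusted p = 2.4e-05) in Tex10-deficient cells. Of the 2 genes' summed FPKM, Lrp6 held 60.3 to 70.9% in spermatogonia, 58.2 to 66% in MI and 72 to 83% in MII, whereas Lrp5 held 93 to 95.5% in spermatids.

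Lgr4 and Lgr6 are R-spondin receptors that protect Frizzled from removal. Lgr4 ranged over 5.48 to 9.89 FPKM in spermatogonia, 2.43 to 3.69 in MI, 7.92 to 13.5 in MII and 2.1 to 2.72 in spermatids. Lgr6 was low in all 16 libraries, at 0.246 to 3.95 FPKM. In MII it was at 2.33 and 0.872 in wild type and 0.443 and 0.246 in Tex10-deficient libraries. The pairs did not overlap, as for 35.3% of all genes, and the difference was not called. In Tex10-deficient cells alone, Lgr6 was called lower from MI to MII and higher from MII to spermatids. Znrf3 is the ubiquitin ligase that removes Frizzled from the membrane. Wild-type Znrf3 was at 8.24 and 13.6 FPKM in spermatogonia, 3.63 and 3.19 in MI, 4.51 and 4.44 in MII and 5.94 and 10.1 in spermatids. Tex10-deficient Znrf3 was at 7.95 and 14.1 FPKM in spermatogonia, 2.96 and 5.41 in MI, 4.2 and 5.58 in MII and 7.16 and 9.62 in spermatids. Spermatogonia and spermatids were its higher fractions, and its largest values came from replicate 2 of spermatogonia in both genotypes. Of the 10 receptors and co-receptors, 8 were called higher in MII than in MI spermatocytes in each genotype, and 7 were called lower in spermatids than in MII, beside the same shares of all genes as for the ligands.

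The 3 Dishevelled genes, the cytoplasmic relays below Frizzled, did not move together. Wild-type Dvl1 was at 6.02 and 8.75 FPKM in spermatogonia, 18.9 and 21.8 in MI, 4.9 and 6.92 in MII and 11.1 and 9.52 in spermatids. Tex10-deficient Dvl1 was at 7.28 and 6.97 FPKM in spermatogonia, 30.7 and 16.6 in MI, 7.98 and 4.61 in MII and 13.2 and 9.84 in spermatids. Every MI library of Dvl1 was above every library of the other fractions. Wild-type Dvl3 was at 8.56 and 15.2 FPKM in spermatogonia, 5.34 and 3.93 in MI, 14.6 and 13.7 in MII and 1.1 and 0.492 in spermatids. Tex10-deficient Dvl3 was at 12.2 and 13.1 FPKM in spermatogonia, 3.52 and 3.53 in MI, 15.4 and 15.6 in MII and 0.31 and 1.42 in spermatids. Dvl3 was high in spermatogonia and MII and at most 1.42 FPKM in spermatids. Dvl1 rose from spermatogonia to MI by 1.36 (SE 0.34, adjusted p = 0.0045) in wild type and 1.54 (SE 0.34, adjusted p = 0.0022) in Tex10-deficient cells and fell into MII (-1.64 and -1.73; adjusted p = 0.0012 and 0.00057). Dvl3 rose from MI to MII by 1.44 (SE 0.35, adjusted p = 0.0031) in wild type and 1.87 (SE 0.35, adjusted p = 0.00036) in Tex10-deficient cells and fell from MII to spermatids (-3.10 and -3.21; adjusted p = 4.7e-06 and 2.0e-06). Dvl1 held 65.2 to 75.7% of the family's FPKM in MI and 78.1 to 93.2% in spermatids, and Dvl3 57.5 to 64.8% in MII. Dvl2 ranged from 2.2 to 8.28 FPKM in spermatogonia to 0.619 to 1.34 in spermatids; 18.3% of its exonic bases overlap Acadvl on the other strand, and no source gives the strand setting of the counting, so its level is uncertain.

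In the destruction complex, Apc fell and the kinase Gsk3b rose from MI spermatocytes to spermatids. Apc is the large scaffold that holds beta-catenin. Wild-type Apc was at 44.5 and 64.6 FPKM in spermatogonia, 20.3 and 18.9 in MI, 27.7 and 25.6 in MII and 1.9 and 2.14 in spermatids. Tex10-deficient Apc was at 35.7 and 49.3 FPKM in spermatogonia, 12.9 and 24.1 in MI, 21.1 and 32.8 in MII and 1.62 and 2.58 in spermatids. The 4 spermatid libraries of Apc were below all 12 others. Its change from MI to spermatids was -2.77 (SE 0.34, adjusted p = 2.3e-05) in wild type and -2.61 (SE 0.34, adjusted p = 4.6e-05) in Tex10-deficient cells. Wild-type Axin1 was at 19.8 and 17.4 FPKM in spermatogonia, 9.79 and 9.87 in MI, 9.01 and 7.82 in MII and 4.78 and 3.16 in spermatids. Tex10-deficient Axin1 was at 24.9 and 19.4 FPKM in spermatogonia, 18.4 and 12.9 in MI, 6.85 and 11.2 in MII and 4.78 and 4.14 in spermatids. Axin1, the scaffold that limits assembly of the complex, was lowest in the 4 spermatid libraries and highest in spermatogonia, which Tex10-deficient MI replicate 1 overlapped. From MI to spermatids Axin1 changed by -1.14 (SE 0.30, adjusted p = 0.0077) in wild type and -1.59 (SE 0.30, adjusted p = 0.00084) in Tex10-deficient cells, and the wild-type call was lost without wild-type spermatid replicate 2 (adjusted p = 0.085).

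Axin2 is both a scaffold and a widely used read-out of beta-catenin signalling. Wild-type Axin2 was at 2.06 and 2.91 FPKM in spermatogonia, 0.967 and 0.671 in MI, 4.16 and 2.35 in MII and 0.0446 and 0.0598 in spermatids. Tex10-deficient Axin2 was at 4.31 and 3.19 FPKM in spermatogonia, 0.853 and 1.56 in MI, 4.88 and 3.09 in MII and 0.137 and 0.14 in spermatids. In spermatids Axin2 was at or below 0.14 FPKM in all 4 libraries. The fall of Axin2 from MII to spermatids was -1.98 (SE 0.32, adjusted p = 7.1e-05) in wild type and -2.11 (SE 0.32, adjusted p = 3.3e-05) in Tex10-deficient cells. Gsk3a and Gsk3b are the paired kinases that mark beta-catenin for degradation. Wild-type Gsk3a was at 10.2 and 18.6 FPKM in spermatogonia, 22.9 and 32.7 in MI, 15.4 and 13.1 in MII and 21.5 and 22.4 in spermatids. Tex10-deficient Gsk3a was at 11.3 and 16.7 FPKM in spermatogonia, 27.9 and 23 in MI, 14 and 20.1 in MII and 33.5 and 22.6 in spermatids. Gsk3a was highest in MI spermatocytes and spermatids, whose libraries overlapped. Wild-type Gsk3b was at 21.2 and 22.6 FPKM in spermatogonia, 9.67 and 10.8 in MI, 25 and 22.3 in MII and 49 and 51.5 in spermatids. Tex10-deficient Gsk3b was at 18.3 and 27.7 FPKM in spermatogonia, 9.79 and 13.1 in MI, 16.4 and 30.5 in MII and 39.1 and 66.8 in spermatids. For Gsk3b the 4 spermatid libraries were the highest and the 4 MI libraries the lowest. As to Gsk3a, 28.3% of the exonic bases of Gsk3a overlap a gene on the other strand (9130221H12Rik), which makes its level uncertain. Gsk3b rose from MI to spermatids by 2.19 (SE 0.34, adjusted p = 0.00014) in wild type and 2.08 (SE 0.34, adjusted p = 0.00024) in Tex10-deficient cells, and the Gsk3a change over the same interval was -0.31 and 0.12 (adjusted p = 0.49 and 0.80). Gsk3a held 63.6 to 75.2% of the pair's FPKM in MI, and Gsk3b 53.9 to 74.7% in spermatids.

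Csnk1a1, the priming kinase of the complex, was the most abundant member. Wild-type Csnk1a1 was at 68.7 and 70.5 FPKM in spermatogonia, 122 and 128 in MI, 67.5 and 89.4 in MII and 232 and 267 in spermatids. Tex10-deficient Csnk1a1 was at 59.1 and 69.8 FPKM in spermatogonia, 104 and 121 in MI, 61.3 and 89.9 in MII and 211 and 225 in spermatids. The 4 spermatid libraries were the highest and the 4 MI libraries the next. The MI to spermatid change was 0.99 (SE 0.27, adjusted p = 0.0086) in wild type and 0.95 (SE 0.27, adjusted p = 0.011) in Tex10-deficient cells, but under quantile normalization it was -0.0089 and -0.10, and the spermatogonia to MI change turned from 0.83 and 0.79 to -0.16 and -0.17. Without wild-type MI replicate 1 or spermatid replicate 2 the MI to spermatid call of Csnk1a1 was lost in wild type (adjusted p = 0.054 and 0.069), and without Tex10-deficient MI replicate 1 or spermatid replicate 2 it was lost in that genotype (0.063 and 0.051).

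**Figure D2:**
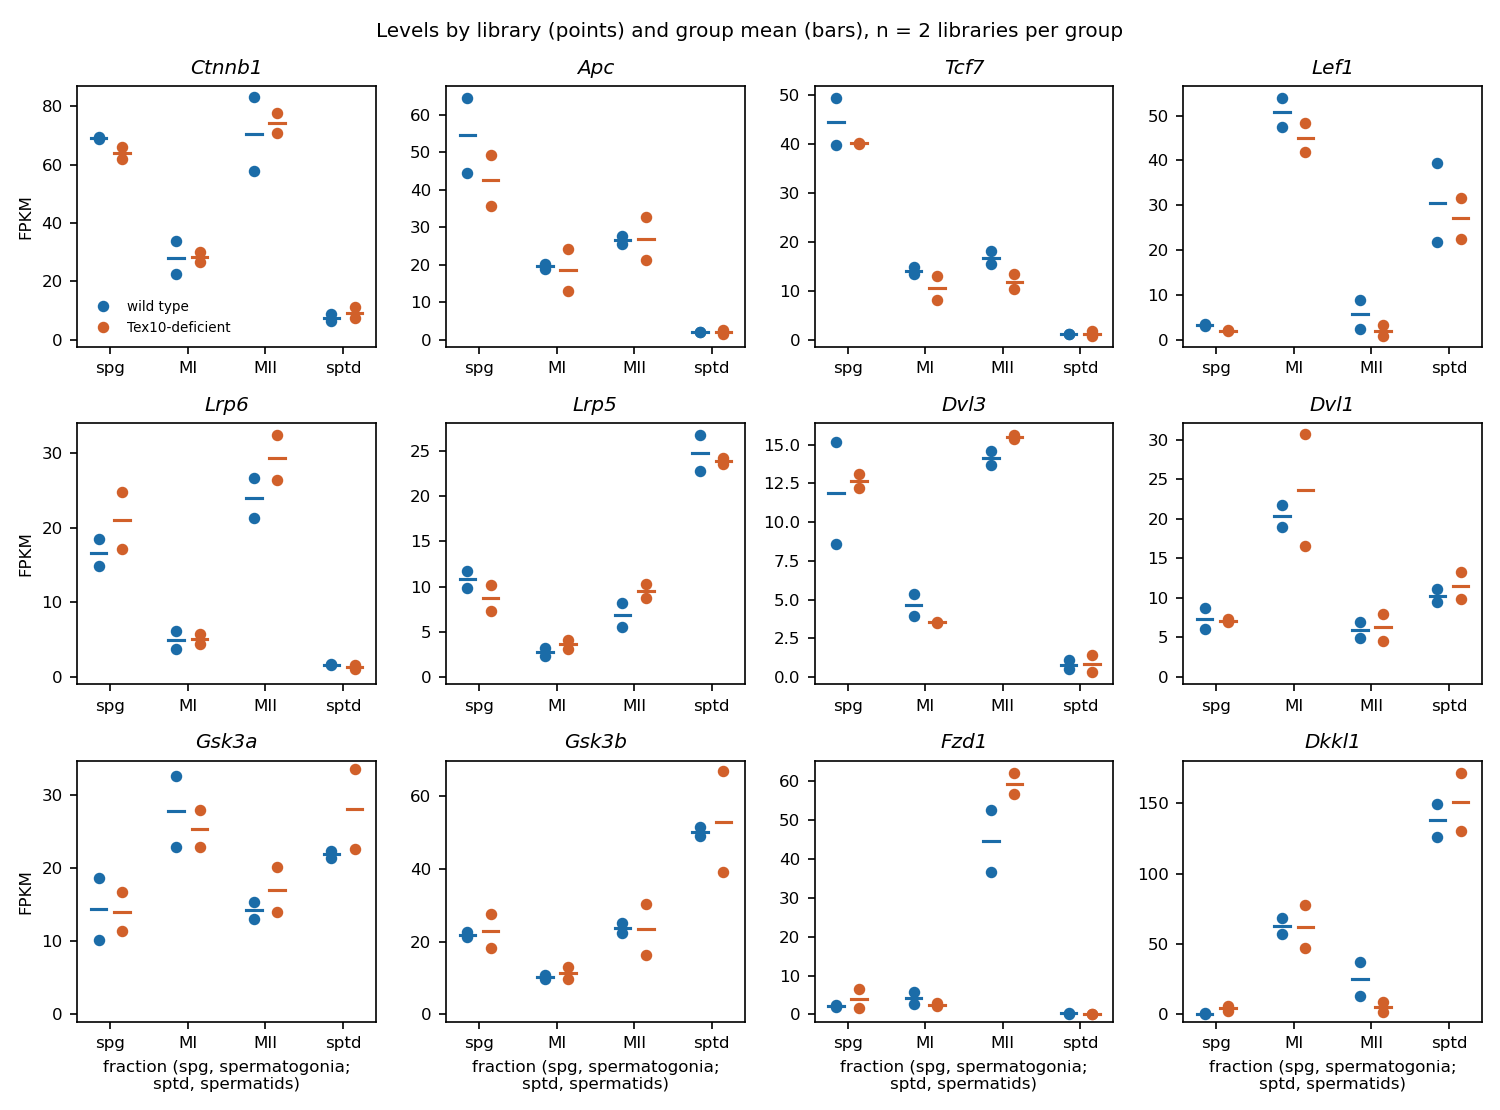
FPKM on linear axes in each library (points; 2 per genotype and fraction) with group means (short lines) for selected members; spg is spermatogonia, MI and MII the 2 spermatocyte fractions and sptd spermatids. Lef1, Dkkl1, Lrp5 and Gsk3b are high in spermatids, whereas Tcf7, Ctnnb1 and Apc are lowest there in every library.

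Among the nuclear partners of beta-catenin, Tcf7 (chr11:52252371-52283014, - strand) was the leading TCF/LEF transcript in spermatogonia and Lef1 (chr3:131110471-131224356, + strand) in MI spermatocytes and spermatids. Wild-type Lef1 was at 2.96 and 3.5 FPKM in spermatogonia, 47.5 and 53.9 in MI, 2.38 and 8.85 in MII and 39.3 and 21.8 in spermatids. Tex10-deficient Lef1 was at 1.98 and 2.04 FPKM in spermatogonia, 48.3 and 41.8 in MI, 0.856 and 3.17 in MII and 31.7 and 22.4 in spermatids. Lef1 was high in the 8 MI and spermatid libraries and at most 8.85 FPKM in the other 8. Wild-type Tcf7 was at 39.7 and 49.4 FPKM in spermatogonia, 13.4 and 14.8 in MI, 15.4 and 18 in MII and 1.05 and 1.19 in spermatids. Tex10-deficient Tcf7 was at 40.1 and 40.3 FPKM in spermatogonia, 8.06 and 12.9 in MI, 10.3 and 13.4 in MII and 1.81 and 0.632 in spermatids. Tcf7, best known from T cells, was highest in the 4 spermatogonia libraries, where T cell markers summed to 16.1 to 63.8 FPKM, and lowest in the 4 spermatid libraries; the part of T cells in its spermatogonial level was not tested.

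Lef1 rose from spermatogonia to MI by 3.61 (SE 0.47, adjusted p = 3.6e-05) in wild type and 3.93 (SE 0.47, adjusted p = 2.2e-05) in Tex10-deficient cells, and the window before its internal start is among those shown above. From MI to MII Lef1 fell, with a change of -3.16 (SE 0.47, adjusted p = 0.00010) in wild type and -4.04 (SE 0.47, adjusted p = 9.3e-06) in Tex10-deficient cells. From MII to spermatids it rose by 2.39 (SE 0.47, adjusted p = 0.00041) in wild type and 3.31 (SE 0.47, adjusted p = 2.1e-05) in Tex10-deficient cells. Of the exonic bases of Lef1, 13.8% overlap an antisense gene (Gm43352), so reads of that gene could count toward it. Tcf7 fell from spermatogonia to MI by 1.59 on the log2 scale in wild type (SE 0.31, adjusted p = 0.00086) and by 1.87 in Tex10-deficient cells (adjusted p = 0.00029), and its MI to spermatid change was -2.83 (SE 0.31, adjusted p = 1.2e-05) in wild type and -2.39 (SE 0.31, adjusted p = 5.1e-05) in Tex10-deficient cells. As a share of the 4 TCF/LEF genes, Tcf7 made up 74.6 to 83% in spermatogonia, 13.9 to 22.9% in MI and 2.47 to 5.36% in spermatids, and Lef1 4.09 to 5.63%, 74.2 to 83.2% and 87.6 to 94.5%. In MII the family was mixed, with Tcf7 at 26.7 to 39%, Tcf7l1 at 20.6 to 50.002%, Tcf7l2 at 17.8 to 25.6% and Lef1 at 2.38 to 19.1%. The shares use 4 libraries per fraction and carry no test.

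**Figure D3:**
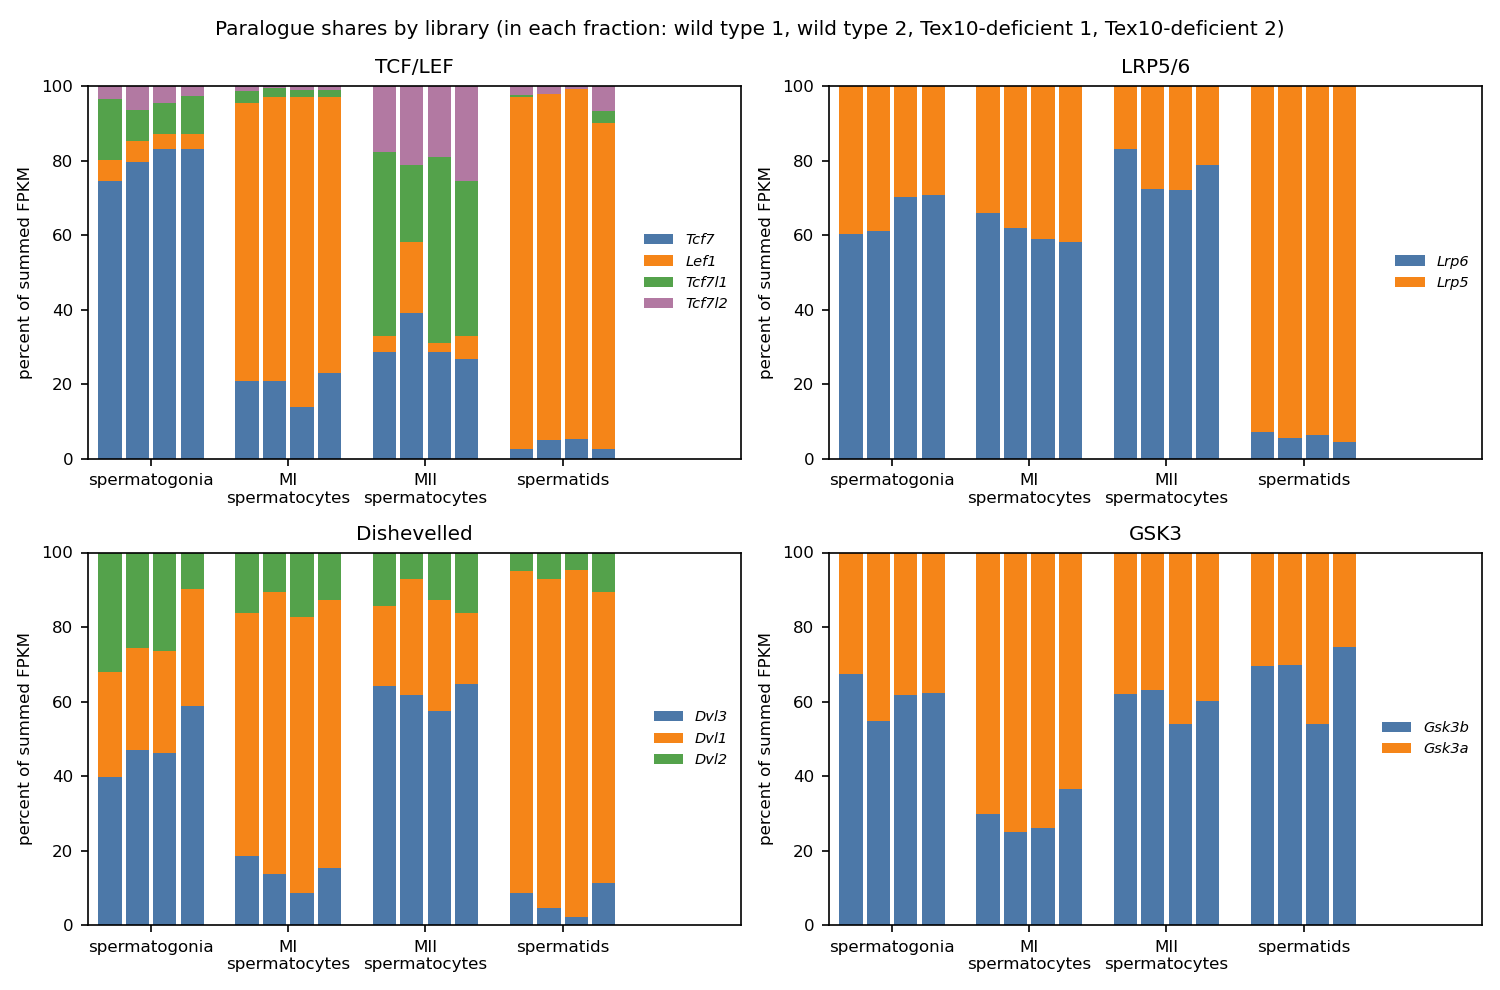
Stacked bars give the share (%) of each family's summed FPKM held by each paralogue, 1 bar per library, ordered by fraction. In the TCF/LEF family the leading gene is Tcf7 in all 4 spermatogonia libraries and Lef1 in all 8 MI and spermatid libraries, and Lrp5 holds 93 to 95.5% of the LRP5/6 sum in spermatids.

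Wild-type Tcf7l1 was at 8.73 and 5.07 FPKM in spermatogonia, 2.06 and 1.72 in MI, 26.5 and 9.52 in MII and 0.265 and 0 in spermatids. Tex10-deficient Tcf7l1 was at 4.01 and 4.95 FPKM in spermatogonia, 1.08 and 0.991 in MI, 18 and 20.8 in MII and 0.0668 and 0.856 in spermatids. Tcf7l1, mostly a repressor of Wnt targets, and Tcf7l2 were high in all 4 MII libraries, where the somatic markers were high too. Wild-type Tcf7l2 was at 1.85 and 4.07 FPKM in spermatogonia, 0.921 and 0.435 in MI, 9.61 and 9.86 in MII and 0.98 and 0.51 in spermatids. Tex10-deficient Tcf7l2 was at 2.25 and 1.29 FPKM in spermatogonia, 0.616 and 0.667 in MI, 6.88 and 12.8 in MII and 0.231 and 1.69 in spermatids. Both rose from MI to MII: Tcf7l1 by 2.56 (SE 0.42, adjusted p = 0.00022) in wild type and 3.32 (SE 0.42, adjusted p = 1.7e-05) in Tex10-deficient cells, and Tcf7l2 by 2.69 and 2.67 (adjusted p = 0.00014 and 8.8e-05).

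Wild-type Ctnnb1 was at 69.6 and 68.9 FPKM in spermatogonia, 33.6 and 22.5 in MI, 83.1 and 57.8 in MII and 8.76 and 6.2 in spermatids. Tex10-deficient Ctnnb1 was at 61.8 and 66 FPKM in spermatogonia, 26.6 and 29.9 in MI, 70.8 and 77.7 in MII and 7.5 and 11 in spermatids. Ctnnb1 encodes beta-catenin, which also joins cadherins at cell contacts, and its libraries separated into high spermatogonia and MII, middle MI and low spermatids; 14.6% of its exonic bases overlap Ulk4 on the other strand. It fell from spermatogonia to MI (-1.30 and -1.15, adjusted p = 0.0020 and 0.0049) and from MII to spermatids, where the change was -3.07 (SE 0.29, adjusted p = 1.5e-06) in wild type and -2.89 (SE 0.29, adjusted p = 1.1e-06) in Tex10-deficient cells. The Pygopus proteins read a histone mark and bridge beta-catenin to transcription. Wild-type Pygo1 was at 10.7 and 14.2 FPKM in spermatogonia, 3.81 and 1.91 in MI, 8.13 and 8.81 in MII and 0 and 0 in spermatids. Tex10-deficient Pygo1 was at 10.6 and 12.8 FPKM in spermatogonia, 1.79 and 2.996 in MI, 16 and 14.9 in MII and 0 and 0.125 in spermatids. Pygo1 was listed at 0 in 3 of the 4 spermatid libraries. Wild-type Pygo2 was at 18.4 and 10.8 FPKM in spermatogonia, 7.76 and 9.63 in MI, 7.03 and 6.81 in MII and 6.86 and 7.21 in spermatids. Tex10-deficient Pygo2 was at 8.01 and 8.5 FPKM in spermatogonia, 8.51 and 7.24 in MI, 7.53 and 4.99 in MII and 6.23 and 2.43 in spermatids. Unlike Pygo1, Pygo2 was at 2.43 FPKM or more in every library. Pygo1 fell from spermatogonia to MI by 1.83 and 1.92 on the log2 scale (adjusted p = 0.00031 and 0.00025) and rose into MII (1.34 and 2.30; adjusted p = 0.0026 and 2.9e-05). Bcl9 and Bcl9l, the adaptors between beta-catenin and Pygopus, were at 12.8 to 23 and 6.04 to 12.2 FPKM in MII and at 1.94 to 3.36 and 0.0495 to 0.34 in spermatids.

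Dkkl1 (chr7:45207519-45212147, - strand) was placed among the secreted antagonists by its name alone, and whether it acts on Wnt signalling was not tested. Its level ran from 0 in wild-type spermatogonia to 171 FPKM in Tex10-deficient spermatids. Dkkl1 encodes a secreted relative of the Dickkopf antagonists that is found in the acrosome of sperm. Wild-type Dkkl1 was at 0 and 0.699 FPKM in spermatogonia, 57 and 68.6 in MI, 12.8 and 37.5 in MII and 149.7 and 126 in spermatids. Tex10-deficient Dkkl1 was at 6.29 and 2.24 FPKM in spermatogonia, 77.4 and 46.9 in MI, 1.69 and 8.61 in MII and 171 and 130.3 in spermatids. Every MI and spermatid library was above every spermatogonia and MII library. Dkkl1 rose from spermatogonia to MI by 5.61 (SE 0.59, adjusted p = 5.5e-06) in wild type and 3.66 (SE 0.59, adjusted p = 0.00022) in Tex10-deficient cells; wild-type spermatogonia replicate 1 is listed at 0, so the size depends on the pseudocount. Wild-type Sfrp1 was at 1.52 and 1.79 FPKM in spermatogonia, 1.28 and 1.44 in MI, 7.21 and 14.4 in MII and 1.19 and 1.57 in spermatids. Tex10-deficient Sfrp1 was at 1.45 and 0.457 FPKM in spermatogonia, 0.451 and 1.27 in MI, 6.11 and 12.5 in MII and 1.04 and 2.26 in spermatids. Sfrp1 binds Wnt outside the cell, and its MII libraries were above all others, with an MI to MII rise of 2.25 (SE 0.42, adjusted p = 0.00051) in wild type and 2.43 (SE 0.42, adjusted p = 0.00019) in Tex10-deficient cells.

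Wild-type Nkd2 was at 6.5 and 10.8 FPKM in spermatogonia, 2.87 and 2.99 in MI, 6.61 and 4.5 in MII and 0.833 and 0.843 in spermatids. Tex10-deficient Nkd2 was at 7.99 and 6.89 FPKM in spermatogonia, 1.72 and 2.2 in MI, 1.55 and 3.29 in MII and 0.501 and 1.35 in spermatids. Nkd2, a feedback inhibitor that binds Dishevelled, had its 6 highest values in the 4 spermatogonia and the 2 wild-type MII libraries. Its change from MII to spermatids was -1.82 (SE 0.35, adjusted p = 0.00035) in wild type and -0.82 (SE 0.35, adjusted p = 0.048) in Tex10-deficient cells. The Tex10-deficient call was lost in 12 alternative settings, among them without Tex10-deficient MII replicate 2 (adjusted p = 0.35).

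Over all members, falls outnumbered rises from spermatogonia to MI and from MII to spermatids, and rises outnumbered falls from MI to MII, in both genotypes. In wild type, the spermatogonia to MI comparison called 25 of 37 (67.6%, against 51.9% of all genes tested), 5 higher and 20 lower (all genes 26.3% and 25.7%). From MI to MII it was 28 of 37 (75.7%, against 57.2% of all genes tested), 23 higher and 5 lower (all genes 30% and 27.2%). From MII to spermatids it was 30 of 37 (81.1%, against 73.8% of all genes tested), 5 higher and 25 lower (all genes 38.8% and 35%). Between MI and spermatids, a comparison that leaves the MII libraries out of the contrast, it was 18 of 37 (48.6%, against 42.3% of all genes tested), 4 higher and 14 lower (all genes 22.6% and 19.8%). Somatic markers differed here too. Over both genotypes, myoid, endothelial and stromal markers summed to 62.2 to 209 FPKM in MI and 6.23 to 35.5 in spermatids. Sertoli sums went the other way, at 6.44 to 9.74 and 12.5 to 69.8, and Leydig sums overlapped. Their part in these calls was not tested. The median member change in these 4 comparisons was -0.86, 1.25, -1.97 and -0.60, against -0.067, 0.046, 0.11 and -0.011 for all genes. The wild-type count from spermatogonia to MI was 16 without wild-type spermatogonia replicate 2 or without wild-type MI replicate 2, and that from MI to spermatids was 9 without wild-type MI replicate 1 and 8 without wild-type spermatid replicate 2.

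In Tex10-deficient cells the same 4 comparisons gave 21 of 37 (56.8%, against 51.2% of all genes tested), 4 higher and 17 lower (all genes 26.5% and 24.7%), then 28 of 37 (75.7%, against 61.7% of all genes tested), 23 higher and 5 lower (all genes 31.6% and 30.1%). From MII to spermatids 33 of 37 (89.2%, against 75.7% of all genes tested), 7 higher and 26 lower (all genes 38.9% and 36.9%) were called. From MI to spermatids the count was 15 of 37 (40.5%, against 42.4% of all genes tested), 3 higher and 12 lower (all genes 23.6% and 18.8%). Members called in both genotypes with the same direction numbered 21, 26, 30 and 14 in the 4 steps, which is 84%, 92.9%, 100% and 77.8% of the wild-type calls, against 81%, 88.6%, 93.7% and 82.6% over all genes. No member was called in opposite directions, and 4, 7, 2 and 1 of 13099 genes were. The agreement of the members was therefore near that of all genes. Those called in the same direction from MI to spermatids in both genotypes included Lrp5 and Gsk3b, which rose, and Tcf7, Apc, Pygo1, Ctnnb1 and Dvl3, which fell; Dvl3 lost the call in Tex10-deficient cells without Tex10-deficient spermatid replicate 1 (adjusted p = 0.087). The members' share was near the background in both MI to spermatid comparisons. Without Tex10-deficient MI replicate 1 the spermatogonia to MI count in that genotype was 12.

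**Figure D4:**
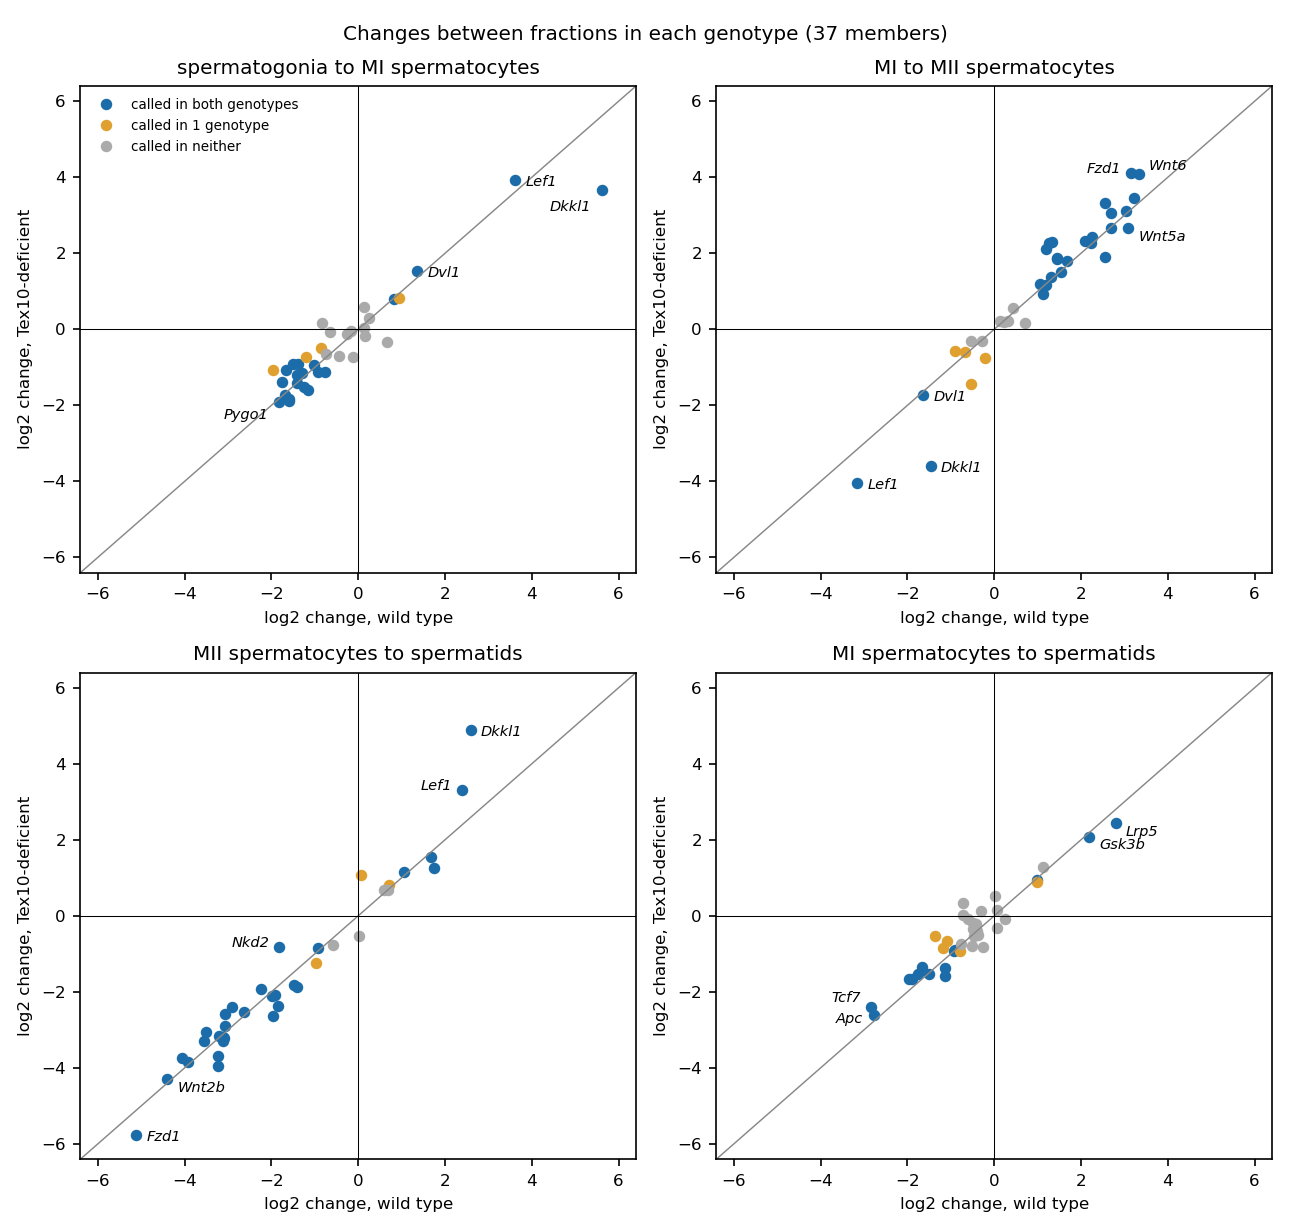
Change of each of the 37 members between fractions (difference of log2(FPKM + 1)) in wild type, on the x axis, against Tex10-deficient cells, on the y axis; the diagonal marks equal changes and colour shows in how many genotypes the change was called. Lef1 and Dkkl1 lie far from the other members in the first 3 panels, and no member is called in opposite directions.

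Within fractions, the comparison of Tex10-deficient with wild-type libraries called 0 of 37 members in spermatogonia, MI, MII and spermatids, in the average over fractions and in the F test of whether the genotype difference varied between fractions (limma). The background was 0.0153% of all genes in spermatogonia, 0.168% in MI, 0.00763% in MII, 0% in spermatids, 0.0992% in the average and 0% in the F test. At an unadjusted p under 0.05 there were 1, 0, 6 and 1 members in the 4 fractions, 3 in the average and 1 in the F test, against 865 (6.6%), 765 (5.84%), 1738 (13.3%), 284 (2.17%), 1437 (11%) and 850 (6.49%) of 13099 genes. The medians of the member changes were -0.078, -0.014, 0.10 and 0.082 in the 4 fractions, against -0.0067, -0.0028, -0.017 and -0.018 for all genes. Genotypes did not overlap for 14 members in spermatogonia (37.8%, against 36.4% of all genes), 9 in MI (24.3% against 34%), 13 in MII (35.1% against 35.3%) and 9 in spermatids (24.3% against 27.5%).

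These counts do not show equal expression. By the same limma test Tex10 itself was called in MI alone (log2 change -2.17, adjusted p = 0.012). In spermatogonia, MII and spermatids its changes of -1.65, -1.24 and -1.66 were not called (adjusted p = 0.10, 0.095 and 0.23). Within 1 fraction the 95% interval of a member's difference had a median half-width of 0.72 on the log2 scale, and it lay within 1 unit of 0 for 18, 23, 19 and 24 of 37 members in spermatogonia, MI, MII and spermatids. For the average over fractions the median half-width was 0.36 and the interval lay within 1 unit for 36 members; Wnt6 was the exception (95% interval -0.39 to 1.03). With the Tex10-deficient libraries grouped by the cell type field instead of the title, 10 of 37 members were called in MI against 24.7% of all genes, with 7 higher and 3 lower (all genes 9.63% and 15.1%). In MII it was 25 against 37.4%, with 4 higher and 21 lower (all genes 16.7% and 20.7%), and by the F test 20 against 39.2%. In spermatogonia, spermatids and the average, 0 members and 0% of all genes were called by the field.

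The difference with the smallest p was that of Dkkl1 in MII, where wild-type libraries held 12.8 and 37.5 FPKM and Tex10-deficient libraries 1.69 and 8.61 (log2 change -2.18, SE 0.59, adjusted p = 0.11, 95% interval -3.45 to -0.91). The groups did not overlap. Without wild-type MII replicate 1 the Dkkl1 difference was -2.92 and passed (adjusted p = 0.010), as it did without Tex10-deficient MII replicate 2 (-3.10, adjusted p = 0.035). Lef1 in MII, at 2.38 and 8.85 FPKM against 0.856 and 3.17, overlapped between genotypes (log2 change -1.05, SE 0.47, adjusted p = 0.35), and without wild-type MII replicate 1 its difference was -1.82 (adjusted p = 0.022). All germ cell marker sums but that of spermatogonia were also lower in Tex10-deficient MII, without overlap. Meiotic prophase markers summed to 58.2 to 188.9 FPKM in wild-type MII and 19.8 to 47.4 in Tex10-deficient MII, and elongating spermatid markers to 790 to 826 and 339 to 678. Round spermatid markers summed to 59.4 to 180.3 FPKM in wild-type MII and 27.7 to 53.2 in Tex10-deficient MII, and late spermatocyte markers to 355 to 1048 and 137 to 276. Spermatogonial marker sums overlapped, at 35.9 to 55.4 and 45 to 51.8. The part of germ cell composition in the Dkkl1 and Lef1 differences was not tested.

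In spermatogonia Dkkl1 went the other way, at 0 and 0.699 FPKM in wild type and 6.29 and 2.24 in Tex10-deficient libraries (log2 change 1.90, SE 0.59, adjusted p = 0.47, 95% interval 0.63 to 3.17). Round spermatid marker sums there were low, at 3.19 to 5.14 and 7.5 to 8.69, and Catsper1 of that list was at 0.218 and 0.0741 against 0 and 0. Late spermatocyte sums were 96.2 to 119.9 and 127 to 192. Elongating spermatid sums (56.4 to 87.4 and 58.1 to 67.7) and meiotic prophase sums (480 to 577 and 324 to 599.8) overlapped. Their part in the difference was not tested. By the F test in limma, Dkkl1 was the 1 member at an unadjusted p under 0.05 (adjusted p = 0.46), and without wild-type MII replicate 1 it passed (adjusted p = 0.042). Wnt5b was higher in Tex10-deficient libraries without overlap in 2 fractions, at 6.85 and 5.12 against 2.6 and 2.91 FPKM in MII (log2 change 0.89, SE 0.28, adjusted p = 0.15) and at 0.758 and 0.502 against 0 and 0 in spermatids (log2 change 0.70, SE 0.28, adjusted p = 1). Its averaged difference was 0.37 (SE 0.14, adjusted p = 0.35). Myoid, endothelial and stromal markers summed to 2888 to 4649 FPKM in wild-type MII and 4874 to 5257 in Tex10-deficient MII. Dcn, the highest of that list, overlapped between genotypes, at 3722 and 1879 against 3658 and 3500. Leydig sums (944 to 1444 against 1317 to 1513) and Sertoli sums (134 to 150 against 124 to 163) overlapped too. The part of somatic cells was not tested.

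Nkd2 in MII was lower in the Tex10-deficient pair, 1.55 and 3.29 against 6.61 and 4.5 FPKM (log2 change -0.97, SE 0.35, adjusted p = 0.22), and Pygo1 was higher, 16 and 14.9 against 8.13 and 8.81 (log2 change 0.80, SE 0.32, adjusted p = 0.27). Pygo2 was lower in spermatogonia, 8.01 and 8.5 against 18.4 and 10.8 (log2 change -0.71, SE 0.36, adjusted p = 0.81), and Axin1 higher in MI, 18.4 and 12.9 against 9.79 and 9.87 (log2 change 0.60, SE 0.30, adjusted p = 0.91). These 4 contrasts were picked by small p or after their values were seen, and in all 4 the pairs did not overlap. The share of all genes without overlap was 36.4%, 34% and 35.3% in spermatogonia, MI and MII. None of the 4 passed the test. The other members with the 3 smallest p-values in a comparison did not pass either. Fzd8 was lower in spermatogonia (log2 change -0.63, SE 0.33, adjusted p = 0.84) and in MI (log2 change -0.53, SE 0.33, adjusted p = 1), where Tcf7 was also lower (log2 change -0.42, SE 0.31, adjusted p = 1). In spermatids Pygo2 differed by -0.69 and Wnt6 by 0.85 (adjusted p = 1 and 1). In the average over fractions Fzd7 differed by 0.34 and Pygo2 by -0.42 (adjusted p = 0.40 and 0.42).

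**Figure D5:**
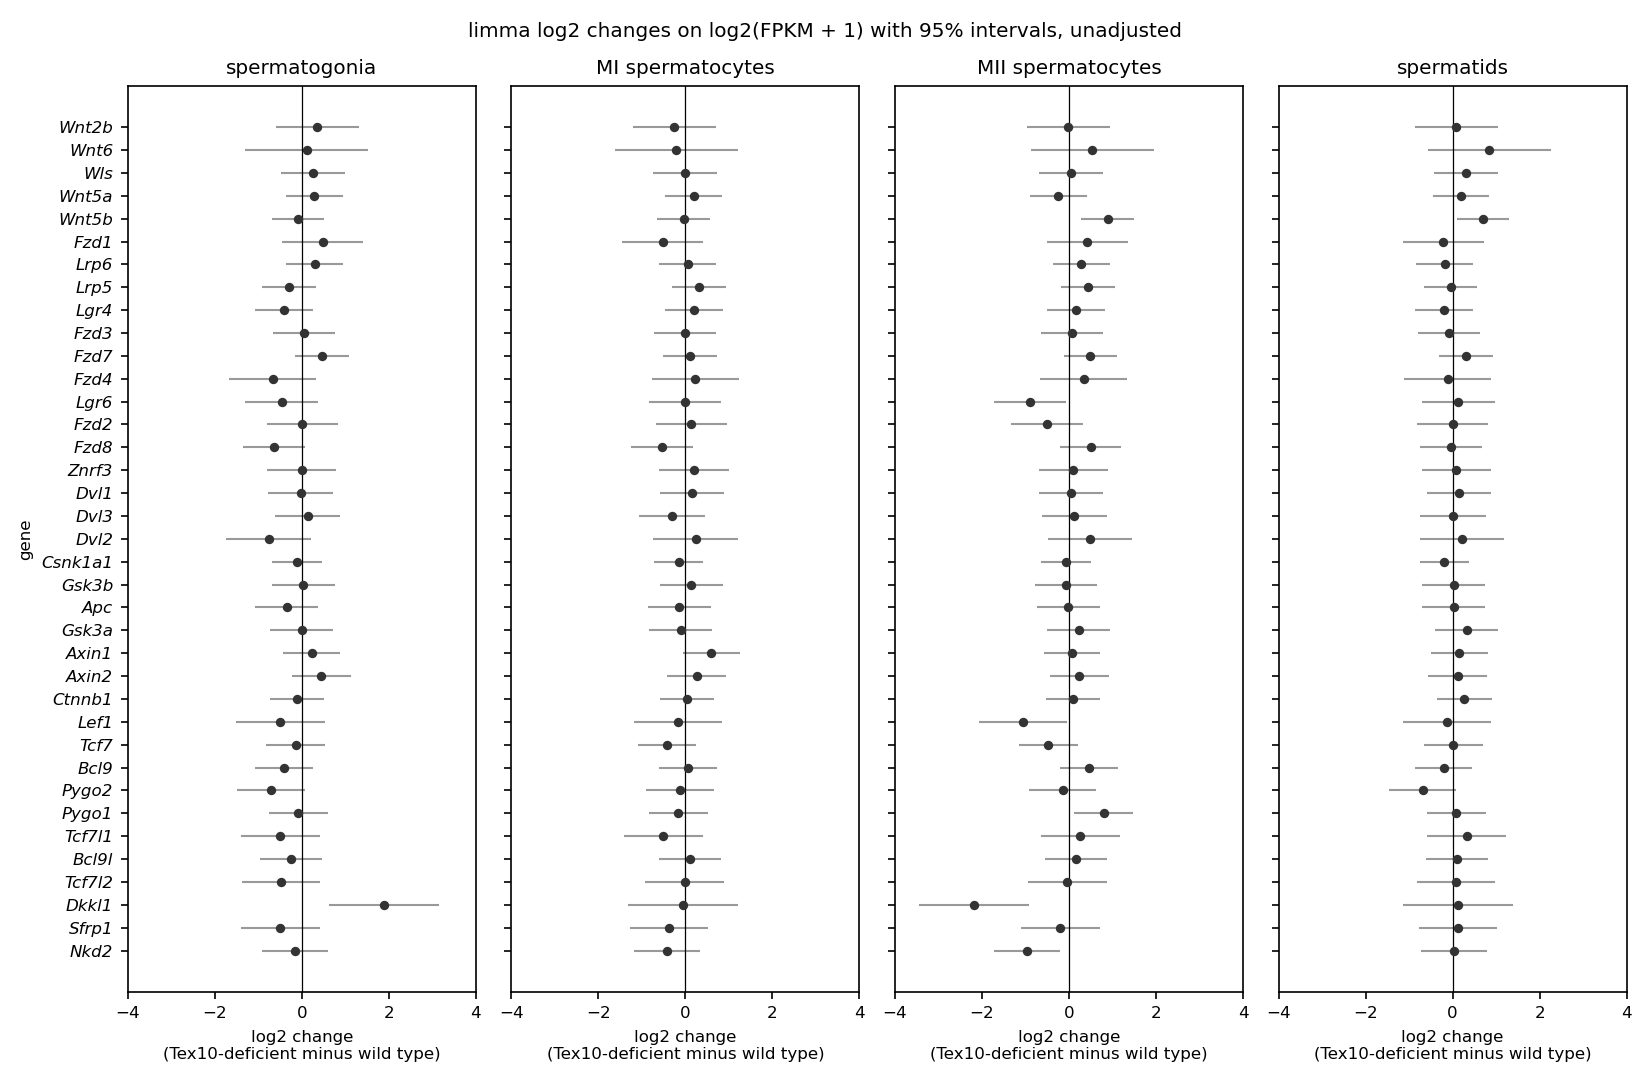
Tex10-deficient minus wild-type difference of log2(FPKM + 1) for each of the 37 members in each fraction, with 95% intervals. No interval belongs to a member called after adjustment over 13099 genes, and the widest departures are those of Dkkl1, higher in spermatogonia and lower in MII.

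With groups by title, no other gene of the pathway lists was called in the Tex10 comparisons. Of 54 further regulators (of 66 listed), 21 genes of the beta-catenin-independent branch (of 28) and 15 Wnt target genes (of 25), 0 were called in any fraction, in the average or in the F test (limma). At an unadjusted p under 0.05, the regulators held 2, 7, 3 and 1 genes in spermatogonia, MI, MII and spermatids, the beta-catenin-independent branch 1, 0, 1 and 0, and the target genes 5, 0, 2 and 0, beside 6.6%, 5.84%, 13.3% and 2.17% of all genes. Among them, the gene with the smallest p in spermatogonia was Tpbg, a Wnt inhibitor at the membrane, at 4.72 and 6.59 FPKM in wild type and 2.12 and 1.88 in Tex10-deficient libraries (log2 change -1.14, SE 0.31, adjusted p = 0.33). The target Fosl1, an AP-1 factor, was at 7.12 and 10.6 FPKM in wild type and 2.7 and 2.36 in Tex10-deficient libraries (log2 change -1.46, SE 0.40, adjusted p = 0.34). In MI, Ppp2r5e, a regulatory subunit of protein phosphatase 2A, was at 33 and 38.5 FPKM in wild type and 15 and 19.5 in Tex10-deficient libraries (log2 change -1.02, SE 0.28, adjusted p = 0.31). In MII, Cdh2, the cadherin that binds beta-catenin at the membrane, was at 2.39 and 6.07 FPKM in wild type and 0.458 and 0.963 in Tex10-deficient libraries (log2 change -1.53, SE 0.38, adjusted p = 0.095), and the target Birc5, a survival and mitotic protein, at 7.63 and 22.9 FPKM in wild type and 3.95 and 5.41 in Tex10-deficient libraries (log2 change -1.35, SE 0.48, adjusted p = 0.21). These 5 genes, picked by small p, were all lower, and their pairs did not overlap between genotypes. Over all genes 36.4%, 34% and 35.3% did not overlap in spermatogonia, MI and MII. Among the next smallest p in limma, Ascl2 in spermatogonia, Sox17 in MI, and Senp2 and Ppp2r5e in MII were also lower. Skp1a in spermatogonia (log2 change 0.76, adjusted p = 0.51) and Ctbp1 and Frat2 in MI (0.85 and 0.85, adjusted p = 0.69 and 0.70) were higher. In spermatids Ppp2ca, Rbx1, Nfatc1 and Tle4, those with the smallest p, were all higher. Without wild-type MII replicate 1, 3 of the 75 regulators and branch genes and 1 of the 15 targets were called in MII, all lower, and 2 of the 75 in the average. Without wild-type spermatogonia replicate 1, 1 target was called in spermatogonia, and it was higher. A replicate block common to wild-type and Tex10-deficient libraries gave 1 call among the 75 in MII, lower. Grouped by the cell type field, 19 of the 75 were called in MI, 35 in MII and 35 by the F test, and 2, 9 and 9 of the 15 targets, against the 24.7%, 37.4% and 39.2% of all genes given for the members.

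Among the target genes, calls for lower levels outnumbered calls for higher levels in every comparison except MI to MII, in both genotypes. In wild type, 1 higher and 7 lower of 15 targets were called from spermatogonia to MI, 10 higher and 1 lower from MI to MII, 2 higher and 13 lower from MII to spermatids and 0 higher and 5 lower from MI to spermatids. In Tex10-deficient cells the counts were 0 higher and 5 lower, 9 higher and 2 lower, 2 higher and 12 lower and 1 higher and 6 lower. For the 54 regulators the wild-type counts were 13 higher and 23 lower, 22 higher and 13 lower, 19 higher and 22 lower and 11 higher and 11 lower, and for the 21 genes of the beta-catenin-independent branch 2 higher and 8 lower, 11 higher and 3 lower, 2 higher and 15 lower and 0 higher and 6 lower. The corresponding Tex10-deficient counts were 10 higher and 19 lower, 22 higher and 14 lower, 19 higher and 24 lower and 11 higher and 13 lower for the regulators, and 2 higher and 8 lower, 11 higher and 1 lower, 1 higher and 14 lower and 0 higher and 6 lower for the branch. Leaving out 1 library moved several of these counts. Without wild-type MI replicate 2 the wild-type spermatogonia to MI calls were 5 targets and 29 of the 75 other genes, in place of 8 and 46. From MI to spermatids the wild-type calls were 2 targets and 18 other genes without wild-type MI replicate 1, and 3 and 17 without wild-type spermatid replicate 2, in place of 5 and 28. In Tex10-deficient cells, 24 other genes in place of 39 were called from spermatogonia to MI without Tex10-deficient MI replicate 1. From MI to spermatids, 3 targets without that library and 4 without Tex10-deficient spermatid replicate 1 were called in place of 7, and 4 with a pseudocount of 5. The shares of all genes called in these comparisons are those given above for the members, and the part of the somatic markers of the MII fraction in these counts was not tested.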

How the data were processed

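RNA-seq of polyA RNA was made from 16 libraries, 2 for each of 8 groups of genotype and cell fraction. The submitters' processing notes name STAR 2.7.6a, Cufflinks 2.2.1, Trim Galore 0.6.3, cutadapt and FastQC 0.10.1, with mm10 as the build. No source used here gives the strand setting or the annotation. The authors deposited 1 table of expression values per gene and library, taken here as FPKM + 1 because its smallest value is 1.0 and the number of decimals follows that scale, so 1 was subtracted to give FPKM. One row whose value holds a letter was dropped, which left 13100 genes. Read depth is unknown, since the table holds no counts: FPKM totals of 187713 to 533859 per library are not a depth, 10044 to 12394 genes reached 1 FPKM, 3.33% of values were 0, and Spearman's rho between the libraries of a group was 0.881 to 0.971 across genes.

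The 13099 genes that reached 1 FPKM in 2 or more libraries entered the test, which was run in limma 3.58.1 (R 4.3.3) on log2(FPKM + 1), with a mean for each of the 8 groups, a mean-variance trend and 8 residual degrees of freedom. P-values were adjusted by the Benjamini-Hochberg method over all genes tested, with a threshold of 0.05, and the test was checked on simulated data. Tables and plots were made with Python 3.11.15, pandas 2.3.3 and matplotlib 3.10.9. Groups follow the sample titles. The members, the other pathway, target and cell type marker lists and the tests were chosen with earlier results of these data known. Values in every library are given for the 2 members of each role with the highest mean and for core members of the pathway. They are also given for the 8 members with the largest change called in the same direction in both genotypes. These 8 were ranked over all steps between fractions by the smaller of the 2 genotype changes. For the Tex10 comparisons, where no member was called, the 3 members with the smallest p in each are given. Pygo1 and Lef1 in MII were added after their values were seen. Positions are from GENCODE M21 and promoter windows from RefSeq, both on GRCm38. The alternatives tried were pseudocounts of 0.1 and 5, no filter and a filter of 5 FPKM, 2 scalings between libraries, no trend, blocks by replicate number, fewer groups, grouping by the cell type field, and leaving out each library.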

Additional observations from a re-analysis of the deposited data

How the results depend on the processing

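Of 198 member changes called between fractions, 137 kept direction and call under every alternative run on single genes, 61 lost the call in at least 1, and 4 reversed, all of Csnk1a1 under quantile normalization: in wild type -0.16 from spermatogonia to MI and -0.0089 from MI to spermatids, and in Tex10-deficient cells -0.17 and -0.10. That normalization moved the median of all genes in wild type from -0.067 to -0.25, from 0.046 to -0.21, from 0.11 to 0.20 and from -0.011 to -0.17 in the 4 steps; the cause was not tested. Grouping by the cell type field called 10 members in MI, 25 in MII and 20 by the F test, against 24.7%, 37.4% and 39.2% of all genes; the cause was not tested. Leaving out each library in turn, the Tex10 comparisons called 0 to 2 members in MII (2 without wild-type MII replicate 1, 1 without Tex10-deficient MII replicate 2), 0 to 1 by the F test and 0 in the other fractions and the average. The counts for the 4 steps then ran over 16 to 26, 22 to 28, 27 to 31 and 8 to 19 in wild type and 12 to 22, 25 to 29, 28 to 33 and 11 to 16 in Tex10-deficient cells; here the lone library of a group is assumed to vary like the other groups. No label pairs libraries by replicate number, and the deviations of same-numbered libraries of the genotypes correlated at 0.20, 0.0038, 0.31 and -0.13 in spermatogonia, MI, MII and spermatids. Between the fractions of 1 genotype the same correlations ran from 0.14 to 0.36 over the 6 wild-type pairs and from -0.082 to 0.42 over the 6 Tex10-deficient pairs, a hint from the data and not from the design. With the number as a replicate block, shared or within each genotype, 0 members were called in every Tex10 comparison, and no count between fractions moved by over 1.5 times. A block with crossed numbers in Tex10-deficient spermatids, chosen after seeing the data, also called 0. With unknown depth and 2 libraries per group, low FPKM values have no counting interval.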
